A study of Homo sapiens with 36 samples.

Results

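Of the 36 RNA-seq libraries of the series, the 6 from HCT-116 WT cells whose file titles read WT siHDAC4 carried labels that contradicted each other, and these 6, chosen by title, are described here. HCT-116 is a colorectal carcinoma line with functional p53. By title, 3 of the 6 received oxaliplatin (OXPT) and 3 were untreated (UNT), all after silencing of HDAC4 with an esiRNA, a pool of short interfering RNAs. The treatment field of the same libraries instead named a control esiRNA with PROTAC #11, a degrader of class IIa HDACs, and gave the opposite OXPT state: the 3 libraries titled OXPT were entered as #11 without OXPT, and the 3 titled UNT as #11 with OXPT. The degrader dose was entered as 1 µM in the treatment field and as 10 µM in the description. Silencing or degrader lasted 48 h, and OXPT was 50 µM for the last 24 h; the untreated arm received solvent.

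Other libraries of the series served as reference. In the FBXW7-/- derivative of the same line (KO), title and treatment field agreed in all 18 libraries, so that KO siHDAC4, KO siCT and KO PROTAC11 give the direction of an OXPT response and of HDAC4 silencing. The libraries titled WT siCT agreed in their OXPT state, but their treatment field named HDAC4 silencing where the title named the control esiRNA. Over the series the OXPT states agreed in 24 libraries and differed in 12, and the agents agreed in 18 (all KO) and differed in 18 (all WT). Both labels split the 36 libraries into the same 12 groups of 3, so every value below stays the same whichever label is read, and only the name of the group changes. Libraries are therefore called by their titles.

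Oxaliplatin binds DNA and forms platinum crosslinks, which block replication and transcription and stabilise p53. CDKN1A, which encodes the cyclin-dependent kinase inhibitor p21, and MDM2, which encodes the ubiquitin ligase that removes p53, are textbook p53 targets. HDAC4 is a class IIa histone deacetylase that works mainly as a corepressor of MEF2 factors. An esiRNA destroys the HDAC4 mRNA, whereas a degrader removes the protein and leaves the mRNA to be made.

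Depth on genes ranged from 12235960 to 19755829 counts in the 6 libraries, within the range of 10725966 to 20527222 over all 36. The libraries numbered 3 stood apart. On the first principal component, which held 45.6% of the variance, the pair numbered 3 scored 61.5 (UNT) and 71.5 (OXPT), while the other 4 scored between -76.2 and -6.23. Reads that did not map made up 11.8 to 12.4% of the libraries numbered 3 and 7.82 to 9.44% of the other 4. The WT siCT library titled UNT and numbered 3 scored 46.4 and the one titled OXPT 87.7, so the same number stood apart there too. The library titled WT siHDAC4 UNT 3 correlated at 0.9741 with one library titled WT PROTAC11 UNT and at 0.9725 with WT siCT UNT 3. With the other untreated libraries of its own title it correlated at 0.879 and 0.807. Key values are given with and without number 3, which was decided after the data were seen. The colorectal epithelium markers EPCAM, CDH1, CDX2, KRT8, KRT18 and KRT19 passed the count filter, whereas KRT20, CDX1, VIL1 and CEACAM5 did not, and no leukocyte (0 of 6) or endothelial (0 of 4) marker did.

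The first question was which label CDKN1A and MDM2 followed. CDKN1A (ENSG00000124762.14, chr6:36676460-36687337, hg38) was at 3706, 4019 and 4565 CPM (counts scaled to a common library size) in the libraries titled OXPT and at 538, 525 and 1150 CPM in those titled UNT. The groups did not overlap, as was so for 22% of all genes tested. The transcript was higher under the OXPT title, the state the treatment field calls untreated. The difference was 2.47 on the log2 scale (SE 0.37, 5.55-fold, edgeR quasi-likelihood test, adjusted p = 3.86e-05), and 2.79 without number 3. With only the compared groups fitted the value stayed at 2.47 and missed the threshold (edgeR adjusted p = 0.0518). In the KO libraries, where the labels agree, OXPT raised CDKN1A by 3.19 (siCT), 3.12 (siHDAC4) and 2.53 (#11) on the same scale, and in WT siCT by 2.63.

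MDM2 (ENSG00000135679.27, chr12:68808177-68845544) was at 434, 393 and 77.0 CPM in the libraries titled OXPT and at 85.8, 145 and 31.5 CPM in those titled UNT. It was higher under the OXPT title within each number, but the groups overlapped because both libraries numbered 3 were low. The log2 difference of 1.78 (SE 0.63) did not pass without the block (adjusted p = 0.0676). It passed with the replicate number as a block (1.76, edgeR adjusted p = 0.00706) and without number 3 (1.77, edgeR adjusted p = 0.00153). Numbers 1 and 2 were not clearly paired between these titles, which limits the block. KO libraries gave 2.62, 2.29 and 2.40 for siCT, siHDAC4 and #11. MDM2 overlaps the carboxypeptidase M gene on the opposite strand, and reads in the overlap were left uncounted.

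**Figure D1:**
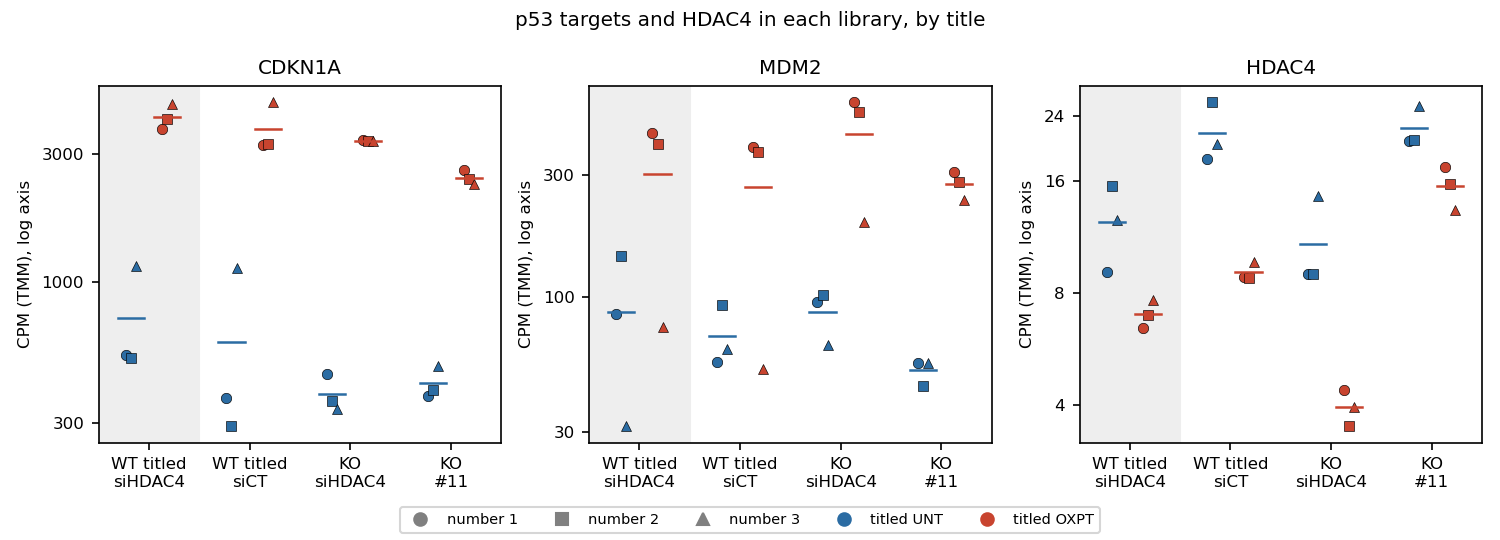
CPM (log axis) of CDKN1A, MDM2 and HDAC4 in each library of WT titled siHDAC4 (grey band), WT titled siCT, KO siHDAC4 and KO #11. Colour gives the titled OXPT state, marker shape the replicate number and the line the group mean. CDKN1A in the grey band lies at 525 to 1150 CPM under the UNT title and at 3706 to 4565 CPM under the OXPT title, and MDM2 overlaps through the triangles of number 3.

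HDAC4 (ENSG00000068024.18, chr2:239048168-239401654) was at 9.13, 15.5 and 12.6 CPM in the libraries titled siHDAC4 UNT and at 18.4, 26.1 and 20.1 CPM in those titled siCT UNT. Every siHDAC4 library lay below every siCT library, which is the order of the titles. The treatment fields would place the silencing in the siCT libraries and OXPT in the siHDAC4 libraries only. In KO, OXPT gave HDAC4 differences of -1.53 (siCT), -1.45 (siHDAC4) and -0.52 (#11, not called). The order under UNT therefore cannot separate the labels. The difference was -0.79 (SE 0.26, 42.3% lower), with an unadjusted p of 0.00497 in the fit across genes and an adjusted p of 0.838. In the OXPT titles HDAC4 was at 6.42, 7.0 and 7.67 CPM after siHDAC4 and at 8.85, 8.80 and 9.67 CPM after siCT. Again there was no overlap, and the difference was -0.37 (SE 0.26, edgeR adjusted p = 1). The share of all genes without overlap was not counted for these silencing comparisons. In KO the same silencing gave -0.78 (UNT) and -0.70 (OXPT), and neither passed (adjusted p = 0.911 and 1). HDAC4 was thus lower after silencing by title in all 4 comparisons, and none of them passed.

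HDAC4 mRNA also fell under the OXPT title, by 0.82 on the log2 scale (SE 0.26, 43.3% lower, adjusted p = 0.0427). OXPT lowered it by 1.24 in WT siCT, 1.45 in KO siHDAC4 and 1.53 in KO siCT. The smaller value of 0.52 in KO #11 did not pass (adjusted p = 0.254). The call in the 6 libraries was fragile: it ended with the reverse-strand counts (adjusted p = 0.132) and, over the removal of each single library in turn, the adjusted p ran from 0.0232 to 0.213. Set beside the KO libraries with #11, which the treatment field names, HDAC4 in the libraries titled OXPT lay below all 3 without OXPT (20.5, 20.6 and 25.5 CPM), while that in the libraries titled UNT overlapped the 3 with OXPT (17.4, 15.7 and 13.4 CPM).

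The whole transcriptome was then compared like with like under each label. Read by title, the 3 libraries titled UNT differed from KO siHDAC4 UNT in 83 of 12478 genes tested (0.665%), and those titled OXPT from KO siHDAC4 OXPT in 24 (0.192%). Read by treatment field, the libraries titled OXPT differed from KO #11 without OXPT in 2546 genes (20.4%), and those titled UNT from KO #11 with OXPT in 1678 (13.4%). To be called, a gene needed a fold over 1.5 and an adjusted p under 0.05. Numbers 1 and 2 alone gave 67 and 26 genes by title and 2937 and 4156 by field. With the block the counts by title were 174 and 37. The field readings also set an esiRNA title against a degrader, so OXPT state and agent cannot be told apart in them. The single most similar library to each of the 6 had the same titled OXPT state, with correlations of 0.974 to 0.990. For UNT replicate 3 it was a library titled WT PROTAC11 UNT. The treatment field of both reads OXPT, so that match cannot separate the labels.

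**Figure D2:**
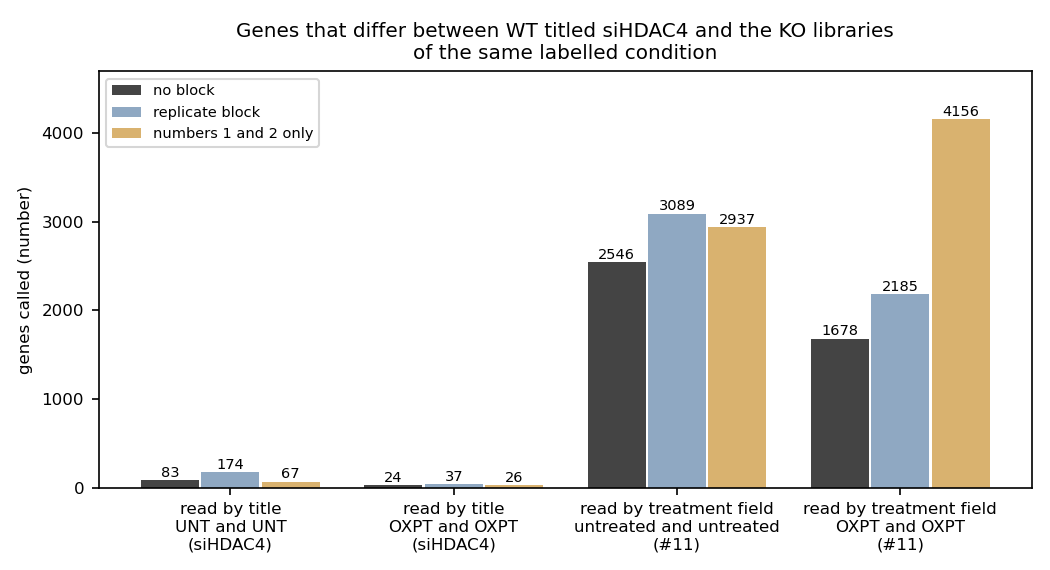
Number of genes called between the libraries titled WT siHDAC4 and the KO libraries of the same condition, read by title (left pairs) or by treatment field (right pairs). Bars give the fit without block, with the replicate block and with numbers 1 and 2 only; by title they reach 24 to 174 genes, by field 1678 to 4156.

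Between the libraries titled OXPT and UNT, 1299 genes were called (10.4%), 727 higher (5.83%) and 572 lower (4.58%) under the OXPT title. The split depended on scaling: with RLE factors 553 were higher and 663 lower. The same comparison in KO siHDAC4, which shares no library with it, had a Pearson correlation across genes of 0.811 (genes are not independent replicates, and replicate numbers pair the WT and KO libraries). Of the 1299 genes, 1281 had a difference of the same sign in KO (98.6%), as had 81% of all genes tested. A total of 803 were called in both in the same direction, and 0 in opposite directions. The 803 made 61.8% of the WT list and 62.0% of the KO siHDAC4 list. In KO siHDAC4 10.4% of all genes tested were called. The response in KO #11, the agent named by the treatment field, correlated more closely (0.858), and that in KO siCT less (0.784). With KO #11, 670 genes were called in both in the same direction, 51.6% of the WT list and 69.8% of the KO #11 list. In KO #11 7.69% of all genes tested were called. Fitting only the compared groups left 79 calls between the OXPT and UNT titles. The counts of list members below therefore rest on the spread shared by all 12 groups. Removing OXPT replicate 3 lowered the count to 687, and removing number 3 from every group raised it to 1768.

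Targets of p53 rose under the OXPT title. Of 32 listed, 31 were tested, 21 were called higher (background 5.83%; 18 with RLE factors) and 0 lower, with a median of 1.51 against -0.02 over all genes. TP53I3, a quinone oxidoreductase, was at 331, 360 and 381 CPM under the OXPT title and at 29.4, 13.6 and 48.9 CPM under UNT, a log2 difference of 3.55 (SE 0.56, adjusted p = 8.21e-05). FDXR, ferredoxin reductase, was at 570, 684 and 695 against 176, 94.4 and 134 CPM (2.27, SE 0.28). In neither gene did the groups overlap, as was so for 22% of all genes tested, and for TP53I3 the naming rule required this. Number 3 followed the others in both genes. The smallest called change was that of TNFRSF10A, a TRAIL receptor (1.03, SE 0.28, adjusted p = 0.0163), at 80.4, 100.1 and 96.9 against 24.7, 44.4 and 66.9 CPM.

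The called targets had several roles. Among growth arrest genes, BTG2 rose by 2.32, PLK2 by 1.22 and PPM1D, a phosphatase that ends the response, by 1.85. Among DNA repair genes, DDB2 rose by 1.31, XPC by 1.05 and POLH, a polymerase that copies past lesions, by 1.75. Death genes included FAS (2.35), BAX (1.63), TP53INP1 (2.04) and BBC3, which encodes PUMA (1.12, adjusted p = 0.0487). SESN1, a stress sensor, rose by 2.25 and PHLDA3, which restrains AKT, by 2.55. The untested member was SPATA18, too low to pass.

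The other 10 tested targets were not called. PLK3 (1.05) and MDM2 passed with the block. RRM2B gave 0.97, GDF15 0.83, TIGAR 0.75, CCNG1 0.46 and TNFRSF10B 0.06, the last turning sign with RLE factors. Those lower in value under the OXPT title were GADD45A (-0.46), PMAIP1 (-0.66) and SESN2 (-0.79). These 3 were at 91.3, 55.5 and 26.3 CPM in UNT replicate 1, below the 3 OXPT libraries (at least 166, 103 and 76.6 CPM), and at 271, 211 and 156 CPM or more in UNT replicates 2 and 3. GDF15 was likewise at 160, 461 and 1236 CPM in the UNT titles and at 798, 1148 and 1357 CPM in the OXPT titles.

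The p53 response element, 2 copies of a motif of 10 bases, was searched without spacer in the 3000 bases before each RefSeq gene start, allowing 2 mismatches outside the fixed C and G of each copy. It was present before 6 of 25 p53 targets with a start (24.0%) and before 2.54% of 9226 protein coding genes tested. Of 17 called targets with a start 4 held it (23.5%), and 2 targets that were not called, GDF15 and PMAIP1, held it too, so the match did not mark the called genes. The matches of the 4 called targets are shown, CDKN1A first as the gene read against the labels, in capitals over the 20 bases, 5′ to 3′ on the strand of the gene, from hg38.
CDKN1A, chr6:36676449-36676468, 2265 bases before the start, 2 mismatches: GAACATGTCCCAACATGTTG
PLK2, chr5:58462274-58462293, 2207 bases before the start, 0 mismatches: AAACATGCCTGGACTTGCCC
BTG2, chr1:203303642-203303661, 1877 bases before the start, 2 mismatches: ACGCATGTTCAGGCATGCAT
AEN, chr15:88621306-88621325, 34 bases before the start, 2 mismatches: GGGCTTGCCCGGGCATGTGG
A match is a resemblance in letters; binding was not measured here.

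Among 17 BCL2 family genes, which set the threshold for apoptosis at mitochondria, 15 were tested. BAX and BBC3 were called, both higher (5.83% of all genes), and both are also on the p53 list. Of these 2 calls, 1 was left with RLE factors, DESeq2 or the reverse-strand column. BAK1 (0.91) passed with the block. BCL2 (-0.29), MCL1 (-0.42) and BCL2L1 (0.04, turning sign with RLE factors) were not called.

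Genes of G2 and mitosis fell. Of 28 listed, 26 were tested, 0 were higher and 14 lower (background 4.58%), with all 26 differences below 0 and a median of -1.56. HMMR, a spindle protein, was at 6.42, 5.19 and 1.59 CPM under the OXPT title and at 24.3, 48.2 and 13.7 CPM under UNT (-2.70, SE 0.56, adjusted p = 0.00175). CCNB1, cyclin B1, was at 76.0, 73.5 and 66.9 against 239, 245 and 182 CPM (-1.62, SE 0.25). PLK1, the mitotic kinase, was at 31.9, 48.9 and 58.4 against 155, 143 and 193 CPM (-1.82, SE 0.30). These 3 genes had no overlap between the titles, as was so for 22% of all genes tested. For HMMR the naming rule required this.

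The smallest called fall was that of AURKB (-1.04, SE 0.27, adjusted p = 0.0106). The 12 members not called included BUB1B (-2.07, SE 0.89), CENPF (-1.76, SE 0.91) and KIF20A (-1.35, SE 0.91). In each of these the untreated library numbered 3 was low, at 7.41, 6.86 and 8.31 CPM against 46.9, 38.3 and 88.4 CPM or more in the other untreated libraries. With the block 17 members were called lower (background 6.38%, with 7.89% of genes higher).

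Of the 14 called genes, 5 carried the cell cycle homology region, TTTGAA on either strand, within the RefSeq promoter window of 250 bases before to 50 bases after the start. It is the element through which repressor complexes hold mitotic genes down. Over the list, 14 of 23 promoters held it (60.9%), against 15.4% of 27305 promoters and 8.95% of those of the protein coding genes tested. Of the 14 called genes 11 had a promoter in the table, so that the 5 made 45.5%. This was below the share over the list, and members not called, such as CDK1, BUB1B and KIF11, held it too. The match therefore did not mark the called genes. The stretches before the start are printed with the element in capitals, on the strand of the gene (GRCh38.p14), as the promoters of genes that fell under the OXPT title.
CCNB2, chr15:59105093-59105145: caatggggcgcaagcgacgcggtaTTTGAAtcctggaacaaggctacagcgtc
PLK1, chr16:23678836-23678888: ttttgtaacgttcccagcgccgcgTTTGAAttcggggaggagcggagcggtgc
CDC20, chr1:43358892-43358951: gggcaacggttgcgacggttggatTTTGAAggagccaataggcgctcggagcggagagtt
CENPA, chr2:26786014-26786055: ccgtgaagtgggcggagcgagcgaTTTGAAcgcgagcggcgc
HMMR, chr5:163460580-163460631: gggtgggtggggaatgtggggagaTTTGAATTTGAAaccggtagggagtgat
In CCNB2, PLK1 and HMMR the element began 28 or 29 bases before the start, and HMMR held it in 2 adjoining copies. CDC20 held a further copy on the opposite strand, 178 bases before the start, which is not printed.

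Of 35 DNA replication and E2F genes tested, 8 were called lower (4.58% of all genes) and 1 higher (5.83% of all genes), with a median of -0.71. E2F2, an E2F transcription factor, fell most among the called genes (-1.40, SE 0.39). CDC6 (-1.32), CDT1 (-1.03) and CDC45 (-1.05), which load or fire replication origins, fell too. PCNA, the sliding clamp and itself a p53 target, rose: it was at 561, 510 and 526 CPM under the OXPT title and at 292, 226 and 302 CPM under UNT (0.96, SE 0.19, adjusted p = 0.00112). The MCM helicase genes MCM2 to MCM7 were not called, and MCM7 (-0.83) passed with the block.

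Of 32 homologous recombination and Fanconi genes tested, 4 were called lower (4.58% of all genes) and 0 higher (5.83% of all genes), with a median of -0.77. These were RAD51B, BARD1, RPA3 and FANCC. Between these titles 4 of the 32, RAD51B among them, reached the count filter only under UNT and could hardly have risen. RAD51B, a homologous recombination gene, was at 1.14, 0.58 and 0.42 CPM under the OXPT title and at 6.64, 6.95 and 6.05 CPM under UNT (-3.14, SE 0.34, adjusted p = 1.36e-06). BARD1, the partner of BRCA1, gave -1.89 (SE 0.57), RPA3 -0.98 (SE 0.27) and FANCC -0.91 (SE 0.20). BRCA1 (-1.60, SE 0.77), BRCA2 (-1.53, SE 0.81) and FANCD2 (-1.07, SE 0.76) did not pass.

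RAD51B spans a long stretch of genome, and long genes as a group were lower under the OXPT title. Among 786 tested genes with an annotated span of at least 200 kb, 152 were called lower (19.3%, against 4.58% of all genes) and 12 higher (1.53%, against 5.83%), with a median of -0.60. In bulk RNA, fewer cells of a kind and less RNA per cell cannot be told apart. The medians were 0.20 for spans of 5 to 20 kb, -0.12 for 50 to 100 kb and -0.26 for 100 to 200 kb. Within numbers 1, 2 and 3 the mean log2 difference of the long genes was -0.33, -0.99 and -0.55. Their median in KO siHDAC4 was -0.59, while silencing by title gave 0.05 (UNT) and 0.08 (OXPT). A gene that passed the count filter through the UNT title alone could hardly rise; with a mean of at least 64 counts over all 36 libraries, 113 of 681 long genes were still lower (16.6%) and 10 higher.

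SMYD3, a methyltransferase gene of 757971 bases on chromosome 1, shows the pattern at full size: it was at 4.30, 5.52 and 4.76 CPM under the OXPT title and at 33.3, 20.6 and 24.7 CPM under UNT (-2.43, SE 0.27, adjusted p = 1.43e-06). HDAC4 itself spans over 200 kb. The untreated library numbered 3 was lower than the other untreated libraries by 0.99 (mean log2 CPM) over the long genes, and its OXPT partner by 0.87. The part of the number in this was not tested.

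**Figure D3:**
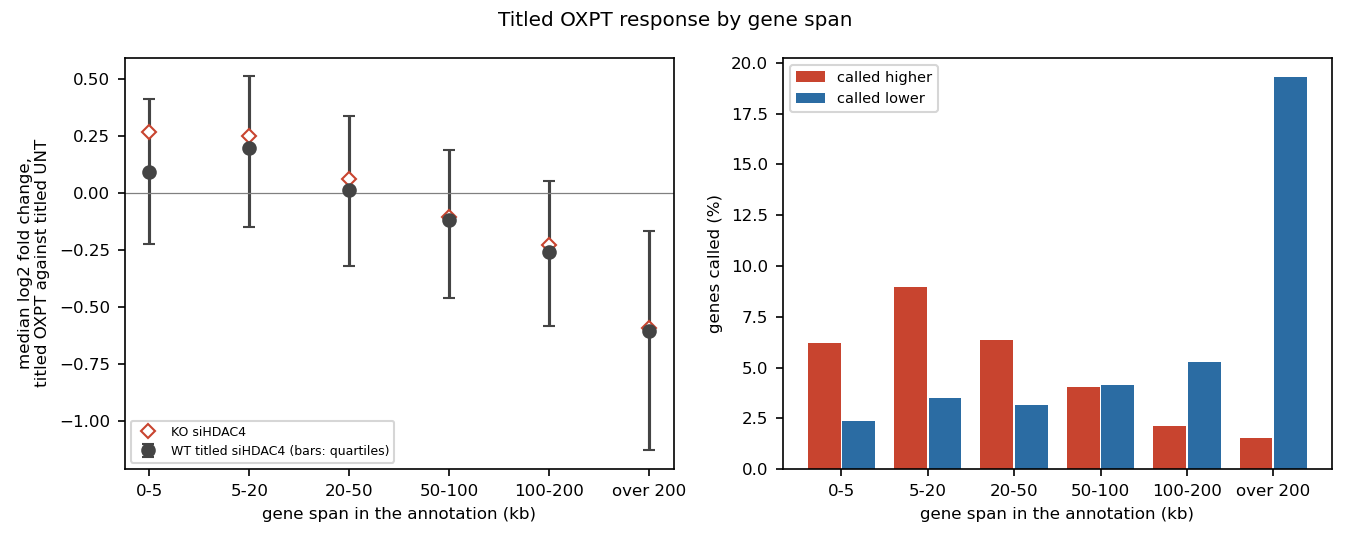
Left, median log2 fold change of titled OXPT against titled UNT by annotated gene span in kb, with quartiles for WT titled siHDAC4 and open diamonds for KO siHDAC4. Right, percentage of genes called higher or lower in WT titled siHDAC4. The share called lower is 19.3% over 200 kb and 2.38 to 5.25% in the shorter bins.

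Stress genes did not move alike within the 3 replicate numbers. Numbers 1 and 2 were not clearly paired between the OXPT and UNT titles. Their deviations from the group means correlated at 0.448 and 0.548, and those of different numbers at up to 0.77. ATF4 target and unfolded protein genes had a median of -1.62, and of 16 tested 5 were called lower (DDIT3, TRIB3, XBP1, PHGDH and HSPA5; 4.58% of all genes) and 0 higher. Over the list the OXPT minus UNT difference in mean log2 CPM was 0.54 within number 1, -1.87 within number 2 and -2.27 within number 3. DDIT3, the CHOP transcription factor, was at 15.7, 13.9 and 15.3 CPM in the OXPT titles, but at 10.2, 123 and 211 CPM in the UNT titles. TRIB3 was no longer called with the block or without number 3 (adjusted p = 0.149 without it). In WT siCT UNT, DDIT3 was at 11.4, 9.51 and 204 CPM, so number 3 was high there as well and number 2 was not.

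Immediate early genes, the first to answer growth factor signals, followed a similar split. Of 21 tested, 3 were lower (EGR1, EGR3 and SPRY4; 4.58% of all genes) and 1 higher (IER5; 5.83% of all genes), 2 reached the count filter only under UNT, with a median of -0.54 and differences of 0.32, -0.96 and -0.79 within numbers 1, 2 and 3. EGR1 was at 42.5, 44.2 and 74.2 CPM under the OXPT title and at 87.1, 1114 and 309 CPM under UNT (-3.23, SE 0.68, adjusted p = 0.00196). EREG, a ligand of the EGF receptor, was at 268, 187 and 142 against 474, 1771 and 1219 CPM (-2.54, SE 0.56). ERRFI1, a feedback inhibitor of that receptor, was at 438, 372 and 217 against 802, 2325 and 1275 CPM (-2.10, SE 0.40), and SPRY4, a feedback inhibitor of the same pathway, fell by 1.59. Untreated replicate 1 was the lowest of the untreated libraries in all 4 genes, and none of the 4 overlapped between the titles, as was so for 22% of all genes tested. For EGR1 and EREG the naming rule required this.

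**Figure D4:**
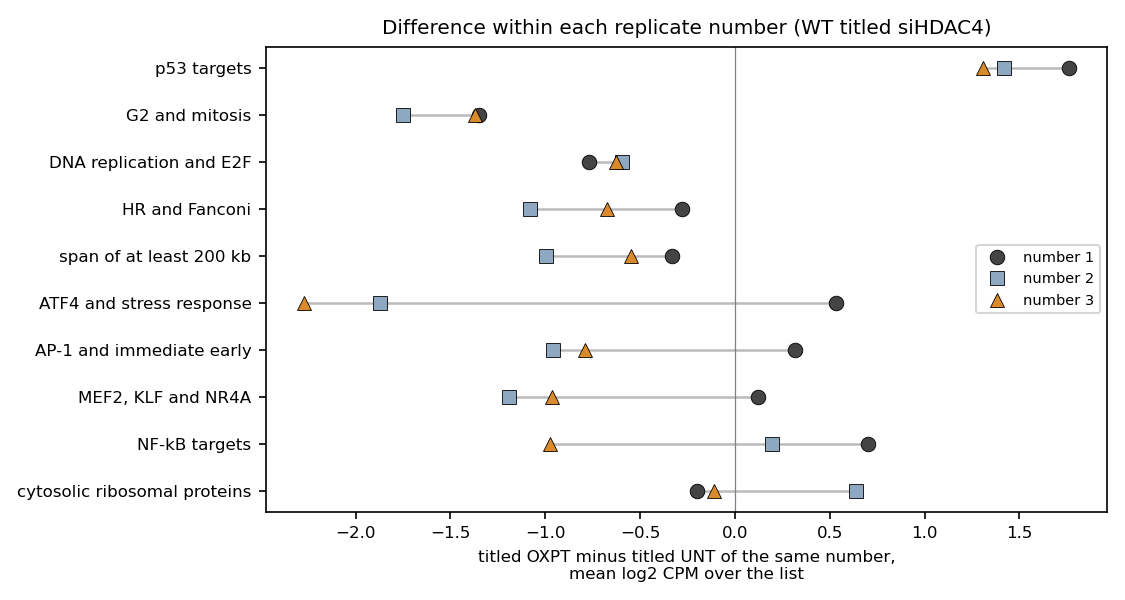
Titled OXPT minus titled UNT within each replicate number for 10 groups of genes, as the difference in mean log2 CPM over the group in WT titled siHDAC4. The p53 targets lie between 1.31 and 1.76 and the G2 and mitosis genes between -1.75 and -1.35, whereas the ATF4 genes spread from -2.27 to 0.54.

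Of 11 HDAC genes listed, 9 were tested. HDAC4 was called lower (4.58% of all genes) and HDAC11, the class IV enzyme, higher (5.83% of all genes), and no other was called. HDAC11 gave 0.72 (SE 0.24, edgeR adjusted p = 0.0476), at 30.7, 40.1 and 47.5 CPM under the OXPT title and 23.3, 20.6 and 28.1 CPM under UNT. The HDAC11 call ended with RLE factors, DESeq2, the reverse-strand column and without number 3 (adjusted p = 0.106). Among class IIa genes, HDAC5 gave 0.45 (adjusted p = 0.193) and HDAC7 0.32 (adjusted p = 0.548), and HDAC9 was too low to test. The class I genes HDAC1 (0.03), HDAC2 (-0.27), HDAC3 (0.03) and HDAC8 (-0.02) and the class IIb gene HDAC6 (0.14) were not called, and HDAC1, HDAC3 and HDAC8 turned sign with another scaling or strand column. HDAC10 was too low to test.

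Of 12 tested MEF2, KLF and NR4A genes, which include targets of class IIa HDACs, 1 was called lower (4.58% of all genes). It was KLF4 (-1.71, SE 0.53, edgeR adjusted p = 0.0336). NR4A2 was at 29.0, 22.2 and 31.7 against 32.5, 53.7 and 36.5 CPM (-0.57, adjusted p = 0.319). Other genes the study follows were not called: FBXW7 (0.79), ICAM1 (0.89), AREG (-1.31), RNF43 (-0.16) and ELF3 (0.01, turning sign with RLE factors). AREG, a ligand of the EGF receptor, was at 719, 1080 and 792 CPM under OXPT and at 577, 1717 and 4110 CPM under UNT, and untreated replicate 1 lay below all 3 OXPT libraries.

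The study's lists of genes beside super-enhancers were chosen by its authors on this cell model. In the first, 11 of 61 tested genes were lower (4.58% of all genes) and 1 higher (5.83% of all genes), and the median was -0.60. RAD51B, which reached the count filter only under UNT, had the lowest value, and ZDHHC6, a palmitoyltransferase, fell least (-0.62, SE 0.15); PTRH2 was the one that rose (0.61, SE 0.18). In the second, of 24 tested, MTAP (-1.16), SH3PXD2A (-1.05) and PTMA (-0.66) were lower (4.58% of all genes). IRS2 (1.17, SE 0.38) was higher (5.83% of all genes). SH3PXD2A is on both lists and is counted in each. With the reverse-strand column PTRH2, which overlaps CLTC and VMP1, gave 0.29. The PTRH2 call ended with RLE factors, DESeq2 and that column, and the IRS2 call with RLE factors and that column. The lists are not independent evidence of a direction.

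Housekeeping groups had medians near 0 and few calls beside the 10.4% of all genes called, but number 2 stood higher. Within numbers 1, 2 and 3 the mean log2 difference was -0.07, 0.67 and 0.11 for nuclear OXPHOS genes. For ribosomal protein genes it was -0.20, 0.64 and -0.11. Among 72 nuclear OXPHOS genes 1 was called, NDUFV3 (0.74, SE 0.19), and the median was 0.21. Among 78 ribosomal protein genes RPL3 was called (-1.28, SE 0.26), at 1727, 1794 and 1918 against 5017, 2908 and 5314 CPM, with a median of 0.11 for the group. Of 28 ribosome biogenesis genes, BOP1 fell (-0.79) and POLR1C rose (0.84). No gene of cholesterol synthesis (24 tested), the interferon group (15) or the NF-kB group (13) was called. With the block ISG15 (1.06) and BST2 (-1.71), both of the interferon group, passed. The NF-kB group differed by 0.70, 0.20 and -0.98 within numbers 1, 2 and 3, and 4 of its genes reached the count filter only under UNT. Among the 6 colorectal epithelium markers KRT8 was called (1.16, SE 0.31), KRT18, KRT19 and CDX2 passed with the block, and of 2 tested fibroblast genes ACTA2 was called (1.51, SE 0.36, at 8.0 to 10.8 against 2.7 to 4.0 CPM). ACTA2 overlaps FAS, a p53 target, on the opposite strand, and KRT8 overlaps KRT18.

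The 10 highest genes by the naming rule included 3 members of the p53 list. PTAFR, the platelet activating factor receptor, was at 49.3, 44.1 and 56.2 against 6.88, 3.23 and 8.22 CPM (3.03, SE 0.39), and SERPINB5, maspin, at 297, 190 and 105 against 44.2, 31.5 and 13.8 CPM (2.73, SE 0.46). HES2 (2.88), BTBD19 (2.54), SULF2 (2.49), INKA2 (2.42) and P2RY2 (2.36) completed them beside TP53I3, PHLDA3 and CDKN1A. Each of the 10 was also called higher in KO siHDAC4, where 6.08% of all genes tested were.

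Among the 10 lowest, GNG7, a G protein subunit, was at 5.85, 4.53 and 3.5 against 37.3, 25.5 and 30.8 CPM (-2.74, SE 0.31, adjusted p = 1.43e-06). RPL22L1, a paralogue of a ribosomal protein, was at 49.4, 69.4 and 92.4 against 277, 247 and 608 CPM (-2.42, SE 0.41). ARFRP1 (-2.35), MACROD1 (-2.34) and LHPP (-2.30) followed, beside EGR1, HMMR, EREG and SMYD3. DHRS2 (-2.48) rested on number 3: its untreated libraries were at 79.2, 57.4 and 501 CPM, and without number 3 it was not called (-1.0, adjusted p = 0.183). EGR1, EREG and DHRS2 were not called in KO siHDAC4. TP53I3, SULF2, INKA2, ARFRP1, MACROD1 and LHPP overlap genes on the opposite strand, and reads in the overlap were left uncounted.

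The next question was what silencing by title did. Against WT siCT, 0 genes were called among the UNT titles (0%) and 0 among the OXPT titles (0%) by edgeR. Before adjustment 369 and 130 genes had a p under 0.05, and the calls of DESeq2 were 21 and 1. The block called 4 genes among the UNT titles and 0 among the OXPT titles, and numbers 1 and 2 alone called 21 and 0. With only the compared groups fitted, the block called 128 genes among the OXPT titles. These comparisons share the siHDAC4 libraries with the OXPT comparison above. PMAIP1, which encodes the BH3-only protein NOXA, was at 55.5, 211 and 264 CPM in siHDAC4 UNT and at 32.2, 52.2 and 87.2 CPM in siCT UNT (1.63, SE 0.48, adjusted p = 0.554), higher within each number but with overlapping groups. HDAC1, HDAC2, HDAC3, HDAC5, HDAC6, HDAC7, HDAC8 and HDAC11 gave differences between -0.23 and 0.31 in the UNT titles.

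Whether the OXPT response itself differed was tested by interaction. Against WT siCT 0 genes were called (0%; 24 at an unadjusted p under 0.05) and against KO siHDAC4 also 0 (0%; 215), by edgeR, and DESeq2 called 0 in both. DDIT3, CHAC1, ATF3 and JUN had interaction values of -4.22, -4.06, -2.97 and -2.75 against KO siHDAC4, with SE of 1.19, 1.28, 0.91 and 0.86 and an adjusted p of 1 for each.

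WT titled siHDAC4 UNT and KO siHDAC4 UNT differed in 83 genes, 80 higher in WT (0.641%) and 3 lower. Immediate early genes made 8 of them, out of 21 tested: JUN, ATF3, EGR1, DUSP5, JUNB, FOSL2, MYC and DUSP4. ATF3 was at 31.8, 254 and 424 CPM in WT and at 21.5, 23 and 22.0 CPM in KO (3.42, SE 0.69, adjusted p = 0.01), so that the WT libraries differed more among themselves than WT replicate 1 did from KO. A further 3 MEF2, KLF and NR4A genes (KLF4, KLF5 and NR4A1) and DDIT3 were higher as well, and ATF3 is on the ATF4 list too. These comparisons share the UNT titles with the OXPT comparison.

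Some differences between WT and KO were called under both titles. VASP, an actin regulator, was at 125, 189 and 475 CPM in WT and at 12.9, 12.4 and 15.9 CPM in KO under UNT (4.26, SE 0.46, adjusted p = 5.4e-06), and by 2.95 higher under OXPT. SLC2A3, the glucose transporter GLUT3, was higher by 3.18 (UNT) and 2.42 (OXPT). MSX2, a homeobox factor, was at 37.7, 41.6 and 48.6 CPM in WT and at 16.05, 12.86 and 14.91 CPM in KO under OXPT (1.54, SE 0.23). SMAD6 was higher by 1.72 under OXPT and not called under UNT (0.49). KRT7 (3.94 under UNT) was carried by number 3, at 28.1, 36.5 and 244 CPM, and did not pass without it (adjusted p = 0.657); DDIT3 did not pass without number 3 either (adjusted p = 0.0875). FBXW7 mRNA was at 25.5, 29.3 and 13.5 CPM in WT siHDAC4 UNT and at 24.4, 26.4 and 20.3 CPM in KO, so its level did not mark the genotype.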

How the data were processed

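Polyadenylated RNA of HCT-116 cells was sequenced in 36 libraries (3 per group). The deposited files hold raw read counts per gene, made by the authors with Trimmomatic 0.39 and STAR 2.7.11a on hg38, per the labels; the counts are not normalized. The labels name a stranded kit, but counts on the reverse over the forward strand had a ratio of 1.004 to 1.016, so the unstranded column was used. Rows without a gene were left out: 7.74 to 22.3% unmapped, 3.05 to 4.04% multimapping, 2.21 to 5.79% outside genes and 10.5 to 12.9% ambiguous, as percent of reads. Of 62757 gene identifiers, 62639 matched GENCODE release 44 without version.

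Genes with a mean count of at least 64 in any group (12478) were fitted in edgeR 4.0.16 (TMM, quasi-likelihood F test) with all 36 libraries and 12 group terms. The Benjamini-Hochberg adjustment ran over all genes tested, and a call needed an adjusted p under 0.05 and a fold over 1.5. The method was tested on simulated data. SE is the log2 difference over the root of F. CPM are TMM scaled; correlations, components and list means used log2 CPM with a prior count of 2. Groups follow the titles. Nothing in the labels says whether libraries of a group came from separate cultures, so p-values measure only the spread between libraries.

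Replicate numbers were checked for pairing from the data by correlating deviations from the group means. Same-numbered OXPT and UNT titles gave 0.448, 0.548 and 0.843, but different numbers reached 0.77, above numbers 1 and 2. Same-numbered values were 0.685 to 0.883 with siCT under UNT and 0.717 to 0.930 with siCT under OXPT. With KO siHDAC4 they were 0.309 to 0.876. In each comparison with siCT or KO siHDAC4, every same-numbered value lay above those of different numbers. For the readings by treatment field same-numbered values ran from -0.363 to 0.0597, so those libraries were not paired. No library pair in the 2 groups was a duplicate (chi-square per degree of freedom at least 27.7).

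The libraries and gene lists were chosen with earlier results of these data known. Named genes are HDAC4, CDKN1A, MDM2, the other HDACs, the extreme called members of each list, genes the study follows, and the 10 highest and lowest called protein coding genes (5 in other comparisons) with at least 64 mean counts in both groups and no overlap; others were named after their values were seen. Promoters are from RefSeq (GRCh38.p14). Alternatives were the reverse-strand column, RLE, DESeq2 1.42.0, other filters, other sets of libraries, the replicate block and each library left out. Results for some genes are not reported here.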

Additional observations from a re-analysis of the deposited data

How the results depend on the processing

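The 14 results recomputed were counts of calls, which have no direction, and values of CDKN1A, MDM2 and HDAC4. None of these gene values reversed direction. Other genes named above with a value near 0 (TNFRSF10B, BCL2L1, ELF3, HDAC1, HDAC3 and HDAC8) did turn sign. Of 151 values under other settings 108 were classed as the same, and of 504 values with a library left out 470 were. For a gene value, the same meant called or not called as before. For a count of calls, which has no threshold, it meant a count close to that of the main fit, not an equal one. CDKN1A stayed at 2.47 but missed the threshold with only the compared groups fitted (edgeR adjusted p = 0.0518). The HDAC4 fall under the OXPT title also lost its call there (-0.82), with the reverse-strand column (-0.72), with no filter (-0.91) and with the replicate block in only the compared groups (-0.79). MDM2 gained a call with DESeq2 (1.72), no filter (1.69), the replicate block (1.76; 1.69 in only the compared groups) and number 3 left out (1.77; 1.81 with the block). The cause was not tested.

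Counts of calls moved as follows. OXPT against UNT titles gave 817 with the filter in every group, 79 with only the compared groups and 2046 without number 3 plus the block. Silencing by title under UNT gave 1 (reverse strand), 21 (DESeq2), 10 (no filter), 2 (every group), 1 (without WT PROTAC11), 4 (replicate block), 21 (without number 3) and 35 (without number 3 plus the block); under OXPT it gave 1 (DESeq2), 1 (no filter) and 128 (block in only the compared groups). Interactions gave 66 (KO) and 1 (WT) with no filter. By title, UNT gave 220 (DESeq2), 458 (no filter), 22 (every group), 174 (replicate block), 0 (only the compared groups) and 9 (those with the block), and OXPT gave 70 (no filter), 3 (every group), 37 (replicate block), 2 (only the compared groups) and 321 (those with the block). By treatment field, the reading against #11 with OXPT gave 356 (only the compared groups), 139 (those with the block), 4156 (without number 3) and 4463 (that with the block), and the reading without OXPT gave 1052 (block in only the compared groups). The replicate block left the other results classed as the same, although counts could differ (1781 for OXPT against UNT titles with all groups fitted). Settings with number 3 left out were chosen after seeing the data.

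With 1 library left out in turn, OXPT against UNT titles gave 687 to 1469 genes, silencing 0 to 15 (UNT; 15 without WT siCT UNT 3) and 0 (OXPT), the interactions 0, the readings by title 22 (without KO siHDAC4 UNT 2) to 315 (without WT siHDAC4 UNT 1) and 15 to 27, and those by field 1435 (without WT siHDAC4 OXPT 3) to 2748 and 807 (without KO PROTAC11 OXPT 1) to 1882. CDKN1A ran from 2.21 to 2.95, MDM2 from 1.39 to 2.27, and HDAC4 from -1.0 to -0.69 (OXPT title), -0.95 to -0.61 (silencing, UNT) and -0.49 to -0.27 (silencing, OXPT). The setting that requires the count minimum in every group leaves HDAC4 out, so it has no value under that setting.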
